A study of Mus musculus with 9 samples.

Results

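The comparison set the MyD88 KO array against the TRIF KO array after 4 h of lipopolysaccharide (LPS), which are 2 of the 9 arrays of the series. MyD88 KO cells were thioglycollate-elicited peritoneal macrophages of MyD88-deficient mice that received 100 ng/ml LPS for 4 h. TRIF KO cells were the same kind of macrophages from TRIF-deficient mice, with the same LPS dose and time. The arrays of both knockouts at 0 h (no LPS) and 1 h served as context, and no wild-type array entered a difference. Thioglycollate broth is an irritant that draws monocytes into the peritoneal cavity, where they become macrophages. The labels give no mouse strain behind either knockout, no age and no word on whether RNA of several mice was pooled. Each group was a single array, so a difference between 2 arrays has no replicate check, carries no p-value and is limited by the number of arrays. Each of 12394 genes was represented by 1 probe set, the brightest on average across the 9 arrays, and the 10032 genes that reached log2 = 6 on at least 1 array were analysed.

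LPS of Gram-negative bacteria is sensed on macrophages by Toll-like receptor 4 (TLR4), which signals through adaptor proteins inside the cell. MyD88 acts at the plasma membrane through IRAK kinases and TRAF6 and leads quickly to NF-kB and MAP kinase activation. TRIF, encoded by Ticam1, acts after the receptor is taken up, leads through TBK1 to IRF3 and type I interferon, and also reaches NF-kB later. A MyD88 KO macrophage therefore keeps TRIF as its TLR4 adaptor arm, and a TRIF KO macrophage keeps MyD88.

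Myd88, the gene named in the MyD88 KO label, had levels of 9.30, 9.19 and 9.34 (log2) in MyD88 KO at 0, 1 and 4 h, against 9.56, 9.54 and 9.96 in TRIF KO. It was lower in MyD88 KO at each time, by 0.63 at 4 h, but its signal was well within the range of expressed genes. No source used here says whether its probes lie in the deleted part of the gene, so the reading settles nothing about the label. Ticam1 was not analysed here, and the TRIF KO label has no such check. The 9 macrophage markers had a mean level of 11.5 in MyD88 KO at 4 h, against 11.6 in TRIF KO. Of 63 markers of 9 other cell types with a probe set, 43 were analysed, and none differed by 2-fold. The largest difference among these was 0.45 on the log2 scale, and the mean levels of a cell type differed by at most 0.10. In a bulk sample, fewer cells of a type and less RNA per cell cannot be told apart.

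At 4 h, 26 genes were at least 2-fold higher in MyD88 KO than in TRIF KO (0.259% of the genes analysed) and 18 were at least 2-fold lower (0.179%). The largest higher differences included interferon-stimulated antiviral genes, the chemokines Ccl5 and Cxcl10, and Npy and Qpct. The largest lower differences included chemokines that attract neutrophils, Il1b, Tnf, Fpr2 and Nfkbiz, a nuclear cofactor of NF-kB. Some of these genes were apart before LPS too, such as Npy by 2.62, Qpct by 2.02 and Fpr2 by -1.96 at 0 h (log2). The higher and lower genes together were 44 (0.439%). At 4-fold or more, 7 genes were higher (0.0698%) and 6 were lower (0.0598%). As a yardstick, the 2 unstimulated arrays differed by 2-fold in 6 genes upward (0.0598%) and 17 downward (0.169%), and the 1 h arrays in 8 upward (0.0797%) and 14 downward (0.14%). The standard deviation of the difference over all genes was 0.192 at 4 h and 0.175 at 0 h, and 99% of genes differed by less than 0.68 at 4 h and 0.54 at 0 h. These spreads hold any effect of genotype as well as array error, so they are not a replicate error. The levels of the 2 arrays correlated across genes at 0.993, where genes are not independent replicates. The last gene inside the upper limit was Bex1, with a difference of 1.00, and the first outside it was Mndal with 0.99. On the lower side Ier3 was inside with -1.03, and Gdf3 was just outside with -0.999.

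**Figure D1:**
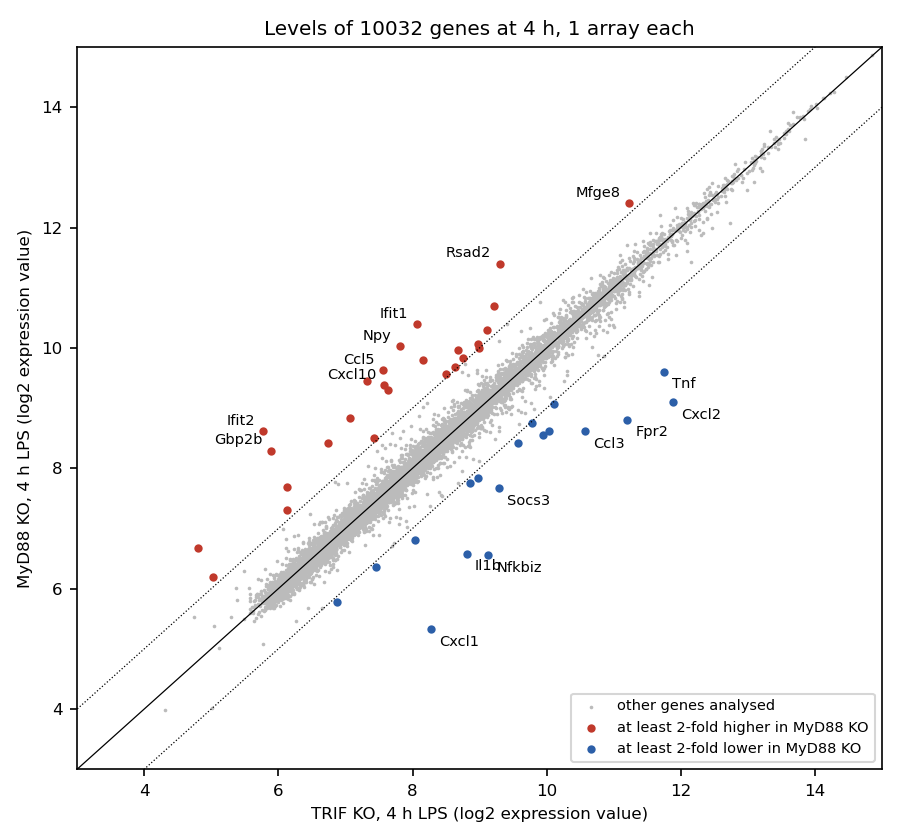
Level of each of 10032 genes (log2 expression value) at 4 h of LPS in MyD88 KO (vertical axis) against TRIF KO (horizontal axis), 1 array each. Dotted lines mark a 2-fold difference, beyond which lie 26 genes above and 18 below the diagonal. Ifit2 and Gbp2b stand farthest above it and Cxcl1 and Cxcl2 farthest below.

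Antiviral genes were higher in cells without MyD88, which keep TRIF. Of 30 antiviral effectors and sensors analysed, 12 were at least 2-fold higher in MyD88 KO and none was 2-fold lower. The shares over all genes were 0.259% and 0.179%. The median difference of the 30 was 0.86 (log2), against -0.00 for all genes, and 29 lay above 0. Of all 10032 genes, 4828 lay above 0 and 5203 below it. Without LPS 27 of the 30 were above 0 already, with a median of 0.26, and the median difference of inductions was 0.35. The exception at 4 h was Bst2, a surface protein that tethers budding virus, with -0.12. Genes of this list were induced by at least 2-fold at 4 h in 7 cases in MyD88 KO and in none in TRIF KO. Induction here is the 4 h level minus the 0 h level of the same genotype. Of all genes, 0.429% were so induced in MyD88 KO and 0.409% in TRIF KO.

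Ifit2, whose protein binds RNA of viruses and halts its translation, had the largest difference of all genes. It read 6.44, 6.79 and 8.62 (log2) at 0, 1 and 4 h in MyD88 KO, against 5.46, 5.36 and 5.77 in TRIF KO. The level was thus high on the MyD88 KO array at 4 h and low on every TRIF KO array, a 7.20-fold difference at 4 h, or 6.15-fold with values under log2 = 6 raised to 6. Ifit1, a sensor of foreign RNA caps, read 8.15, 8.26 and 10.40 in MyD88 KO, against 7.37, 7.35 and 8.06 in TRIF KO. Its neighbour in function Ifit3, which stabilises Ifit1 in human cells, read 8.42 in MyD88 KO, against 6.74 in TRIF KO at 4 h. Rsad2 (viperin) makes a nucleotide that stops viral polymerases. It read 9.45, 9.65 and 11.40 in MyD88 KO, against 8.97, 9.05 and 9.30 in TRIF KO. In these 4 genes the 1 h level was at most 0.35 above the 0 h level in either knockout, and the separation widened between 1 h and 4 h.

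Further antiviral genes were at least 2-fold higher in MyD88 KO at 4 h. Usp18, which takes ISG15 off proteins and restrains interferon receptor signalling, read 8.83 in MyD88 KO, against 7.07 in TRIF KO at 4 h. The OAS-like genes Oasl1 and Oasl2 were 3.12-fold and 3.16-fold higher in MyD88 KO. Cmpk2, a mitochondrial nucleotide kinase next to viperin in the antiviral response, was 2.94-fold higher, and the interferon-induced Rtp4 was 2.79-fold higher. Ifih1, the cytosolic RNA sensor MDA5, read 10.30 in MyD88 KO and 9.11 in TRIF KO. Parp14, an ADP-ribosyltransferase, was 2.14-fold higher and Helz2, a helicase, 2.11-fold higher, and both started nearly level, with an unstimulated difference of 0.08 for Parp14. Mx1, a GTPase against influenza-like viruses, read 6.19 in MyD88 KO and 5.03 in TRIF KO, near the low end of the array. Ifi202b (2.11-fold higher) and Ifi44l (3.67-fold higher) were read by probe sets of a type shared by several transcripts, so their values may include related genes. Ifi44l was 1.80 higher in MyD88 KO already at 0 h and lay under log2 = 6 on every TRIF KO array, and with values under 6 raised to 6 its 4 h difference was 0.67.

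Promoters of 3 of these genes are shown because they hold the interferon-stimulated response element (ISRE), searched as GAAA, any 2 bases and GAAA on both strands. Bases 250 before to 50 after the annotated start were taken from RefSeq (GRCm38.p6), 5′ to 3′ along the gene, with the motif in capitals. Ifit1 lies at chr19:34640639-34640938 (+ strand) with 2 matches. Gbp2b lies at chr3:142594597-142594896 (+ strand) and Rsad2 at chr12:26456403-26456702 (- strand), with 1 match each. All matches shown lie on the opposite strand and so read TTTC, 2 bases and TTTC.
Ifit1: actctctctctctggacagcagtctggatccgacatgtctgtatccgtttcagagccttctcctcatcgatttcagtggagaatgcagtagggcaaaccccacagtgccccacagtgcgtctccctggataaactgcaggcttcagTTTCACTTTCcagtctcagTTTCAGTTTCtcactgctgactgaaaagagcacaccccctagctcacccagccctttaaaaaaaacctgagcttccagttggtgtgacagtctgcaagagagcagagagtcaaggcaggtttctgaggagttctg
Gbp2b: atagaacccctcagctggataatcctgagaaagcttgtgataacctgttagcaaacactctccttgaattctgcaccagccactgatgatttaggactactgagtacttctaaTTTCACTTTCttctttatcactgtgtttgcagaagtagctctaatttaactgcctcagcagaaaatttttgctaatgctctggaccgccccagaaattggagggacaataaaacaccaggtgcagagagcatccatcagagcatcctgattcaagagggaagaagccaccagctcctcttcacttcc
Rsad2: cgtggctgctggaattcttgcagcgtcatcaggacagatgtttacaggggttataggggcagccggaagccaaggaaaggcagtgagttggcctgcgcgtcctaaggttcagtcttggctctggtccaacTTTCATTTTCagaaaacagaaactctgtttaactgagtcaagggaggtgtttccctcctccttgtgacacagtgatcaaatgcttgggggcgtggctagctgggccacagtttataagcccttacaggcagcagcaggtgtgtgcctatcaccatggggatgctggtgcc
Among the 26 higher genes, 19 had a promoter in the RefSeq table. The ISRE letters were in 6 of them (31.6%), namely Cxcl10, Gbp2b, Ifih1, Ifit1, Ifit3 and Rsad2. Gbp2b reached log2 = 6 on MyD88 KO arrays only, so it entered this set through the knockout where it is high. The same letters were in none of 16 promoters of the lower genes and in 3.97% of 8081 promoters of all genes analysed. A match describes the letters only, and no match says nothing about any factor.

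Of the chemokines that interferon induces, 2 of 3 analysed were at least 2-fold higher in MyD88 KO, against 0.259% of all genes. Ccl5 (RANTES), which attracts T cells and monocytes, read 7.60, 7.71 and 9.63 at 0, 1 and 4 h in MyD88 KO, against 7.11, 7.14 and 7.56 in TRIF KO. Cxcl10 (IP-10), a ligand of CXCR3 on T and NK cells, read 6.85, 7.33 and 9.38 in MyD88 KO, against 6.93, 6.997 and 7.58 in TRIF KO. Cxcl10 started nearly level, with a difference of -0.08 at 0 h, and had the largest difference of inductions of all genes in this direction, 1.88 on the log2 scale. Cxcl9, another CXCR3 ligand known mainly as a target of interferon-gamma, read 6.26 in MyD88 KO and 6.18 in TRIF KO. Cxcl11 and the interferon gene Ifnb1 stayed below the filter and were not analysed.

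Guanylate-binding proteins and immunity-related GTPases, which attack the vacuoles of intracellular microbes, leaned the same way by less. All 9 genes of this list that were analysed were above 0, none by 2-fold and 5 by at least 1.5-fold, with a median of 0.78. The median gene was Gbp6, which stayed under log2 = 6 on all knockout arrays, and with values under 6 raised to 6 the median was 0.55 and 4 genes reached 1.5-fold. At 1.5-fold, 60 of all genes (0.598%) were higher and 64 (0.638%) lower. Irgm1, a regulator of these GTPases, read 9.73 in MyD88 KO, against 8.78 in TRIF KO at 4 h. Ifi47 read 10.12 in MyD88 KO and 9.28 in TRIF KO. Gbp2, in contrast, read 9.01 in MyD88 KO, against 8.96 in TRIF KO, and was induced by at least 2-fold in both. Gbp2b, outside that list, read 6.99, 7.03 and 8.29 in MyD88 KO, against 5.70, 5.62 and 5.89 in TRIF KO, and was already higher without LPS. It reached log2 = 6 in MyD88 KO only. The interferon regulatory factors and STATs had a median of 0.00 over 14 genes, with none at 2-fold. Among them Stat2, a subunit of the interferon-activated factor ISGF3, had a difference of 0.45. Irf7, the factor that amplifies interferon, had one of 0.44.

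Cxcl1 and Cxcl2, chemokines that attract neutrophils, were among the genes lowest in MyD88 KO relative to TRIF KO. Cxcl1 (KC) read 5.11, 6.24 and 5.33 at 0, 1 and 4 h in MyD88 KO, against 5.33, 8.57 and 8.28 in TRIF KO. At 4 h it was near its unstimulated level in MyD88 KO while it stayed high in TRIF KO, with a difference of -2.95. The MyD88 KO reading lay under log2 = 6, the low end of these arrays, and with such values raised to 6 the difference was -2.28 (4.84-fold), behind Cxcl2, Nfkbiz and Fpr2. Cxcl2 (MIP-2), which binds the same receptor CXCR2, read 7.18, 10.12 and 9.10 in MyD88 KO, against 9.27, 11.90 and 11.88 in TRIF KO. Here the MyD88 KO array was already lower at 0 h, and both knockouts had induced the gene by 1 h. Of the 6 genes in this list, 2 were 2-fold lower and 5 lay below 0, with a median of -0.77. Among all genes 0.179% were 2-fold lower. The list also holds Pf4 (-0.25), whose action on neutrophils was not examined here. All 6 lay below 0 without LPS too, and the median difference of inductions was -0.32. The 4 h median was -0.40 with values under 6 raised to 6 and -1.66 with a minimum of 7. Cxcl5 read 4.016 in MyD88 KO and 5.005 in TRIF KO, which is under the filter value on every knockout array and so at the low end of what these arrays resolve.

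Promoters of Cxcl1 and Cxcl2 are shown because each holds the NF-kB motif, searched as GGG, any 2 bases and TTTCC on both strands, at 2 places. The windows are from RefSeq (GRCm38.p6), both on the + strand, at chr5:90890995-90891294 for Cxcl1 and chr5:90903649-90903948 for Cxcl2, with the motif in capitals.
Cxcl1: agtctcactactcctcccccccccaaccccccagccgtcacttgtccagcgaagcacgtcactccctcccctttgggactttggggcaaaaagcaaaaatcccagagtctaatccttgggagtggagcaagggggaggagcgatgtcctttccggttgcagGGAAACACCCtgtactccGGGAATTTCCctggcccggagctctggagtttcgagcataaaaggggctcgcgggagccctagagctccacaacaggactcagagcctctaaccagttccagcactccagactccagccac
Cxcl2: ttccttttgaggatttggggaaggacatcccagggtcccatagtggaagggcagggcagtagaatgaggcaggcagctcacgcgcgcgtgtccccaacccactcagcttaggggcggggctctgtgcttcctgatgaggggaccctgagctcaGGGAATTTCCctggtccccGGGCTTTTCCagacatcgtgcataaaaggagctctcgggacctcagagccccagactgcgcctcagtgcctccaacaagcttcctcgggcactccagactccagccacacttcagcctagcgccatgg
These letters were in 4 of 16 promoters of the lower genes (25%), namely Cxcl1, Cxcl2, Marco and Tmem176b, in none of 19 promoters of the higher genes and in 2.10% of all promoters. No promoter of either set held both the ISRE and the NF-kB letters. The AP-1 motif TGANTCA was in 4 of 19 promoters of the higher genes (21.1%), in 1 of 16 of the lower genes (6.25%) and in 7.12% of all promoters.

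Among inflammatory cytokines, Tnf, Il1b and Il1a were at least 2-fold lower in MyD88 KO. Tnf, the cytokine that activates endothelium and phagocytes, read 8.82, 10.08 and 9.61 in MyD88 KO, against 9.66, 11.92 and 11.75 in TRIF KO. Il1b, the fever-inducing cytokine made as an inactive precursor, read 6.61, 7.60 and 6.58 in MyD88 KO, against 6.99, 9.21 and 8.81 in TRIF KO. In both genes the MyD88 KO cells had a higher level at 1 h than at 4 h, while the 1 h and 4 h levels of TRIF KO cells lay closer together. Il1a, an alarmin of the same family, read 6.80 in MyD88 KO, against 8.03 in TRIF KO at 4 h. Of 17 cytokine genes analysed, these 3 were 2-fold lower, none was 2-fold higher, 13 lay below 0 and the median was -0.31. Among all genes 0.179% were 2-fold lower, and 5203 of 10032 lay below 0. Il12a, a subunit of interleukin-12, read 5.46 in MyD88 KO and 6.26 in TRIF KO. Il15, which supports NK cells, was the cytokine farthest the other way, with 6.89 in MyD88 KO and 6.30 in TRIF KO. Il6 read 4.20, 3.90 and 3.98 in MyD88 KO, against 3.91, 4.29 and 4.31 in TRIF KO. It stayed at the low end on all 6 knockout arrays, where a response of the gene was not detectable.

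The list of CC and other chemokines had a median of 0.00 over 14 genes and 1 member at 2-fold, against 0.439% of all genes. That member was Ccl3 (MIP-1 alpha), which attracts monocytes, with 8.96, 9.15 and 8.61 in MyD88 KO, against 9.23, 9.91 and 10.56 in TRIF KO. Its level at 4 h was below that at 0 h in MyD88 KO and above it in TRIF KO. Ccl4, its neighbour in function, read 9.11 in MyD88 KO and 9.68 in TRIF KO. Cxcl16, a membrane-bound chemokine and scavenger receptor, was 1.84-fold lower in MyD88 KO at 4 h, after a difference of -1.03 at 0 h. Outside that list, Cxcl13, the B cell attractant, was 2.66-fold lower in MyD88 KO at 4 h, after a difference of -0.95 at 0 h.

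Genes of the NF-kB system itself were lower in MyD88 KO before LPS as well as after it. All 11 subunits and inhibitors lay below 0 at 4 h, with a median of -0.41, and all 11 lay below 0 at 0 h too, with a median of -0.41. Of all 10032 genes 5203 lay below 0 at 4 h, and the median of all genes at 0 h was 0.02. The median difference of inductions of the 11 was 0.04, with 7 above 0, against a median of -0.01 for all genes. Nfkbiz (I-kappa-B-zeta), which works with NF-kB at secondary response genes, was the 1 gene of the 11 2-fold lower at 4 h, against 0.179% of all genes. It read 5.92, 7.31 and 6.55 in MyD88 KO, against 7.07, 10.39 and 9.12 in TRIF KO. It was highest at 1 h in both knockouts, and lower in MyD88 KO on each array. Nfkbie, an inhibitor, had inductions of 2.04 in MyD88 KO and 1.24 in TRIF KO. The subunits Relb and Nfkb2 had inductions of 1.54 and 1.25 in MyD88 KO, against 1.06 and 1.04 in TRIF KO. Nfkbia, the inhibitor that NF-kB restores first, read 12.94 in MyD88 KO, against 13.21 in TRIF KO at 4 h. Rela, a core subunit, read 10.87 in MyD88 KO and 10.89 in TRIF KO.

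Of 18 signalling feedback genes 2 were 2-fold lower in MyD88 KO (Socs3 and Pde4b), as was 1 of 7 CCCH zinc finger and mRNA decay genes (Zc3h12a), against 0.179% of all genes. No member of these lists was 2-fold higher. Socs3, which blocks cytokine receptor signalling through gp130, read 7.57, 7.95 and 7.67 in MyD88 KO, against 7.86, 8.91 and 9.29 in TRIF KO. Zc3h12a (Regnase-1), an RNase that cuts cytokine mRNAs, read 6.35 in MyD88 KO, against 7.46 in TRIF KO at 4 h. Pde4b, which degrades cAMP, read 7.83 in MyD88 KO, against 8.98 in TRIF KO, with inductions of 1.31 and 1.33. The deubiquitinase gene Tnfaip3 (A20) had a difference of -0.62. Peli1, a ubiquitin ligase of TLR signalling outside these lists, was 2.10-fold higher in MyD88 KO, with 8.53 in MyD88 KO at 0 h and 9.56 at 4 h, against 8.50 at both times in TRIF KO. Among 20 immediate early factors, Ier3, a survival gene, was 2.05-fold lower in MyD88 KO, and the median was -0.22.

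**Figure D2:**
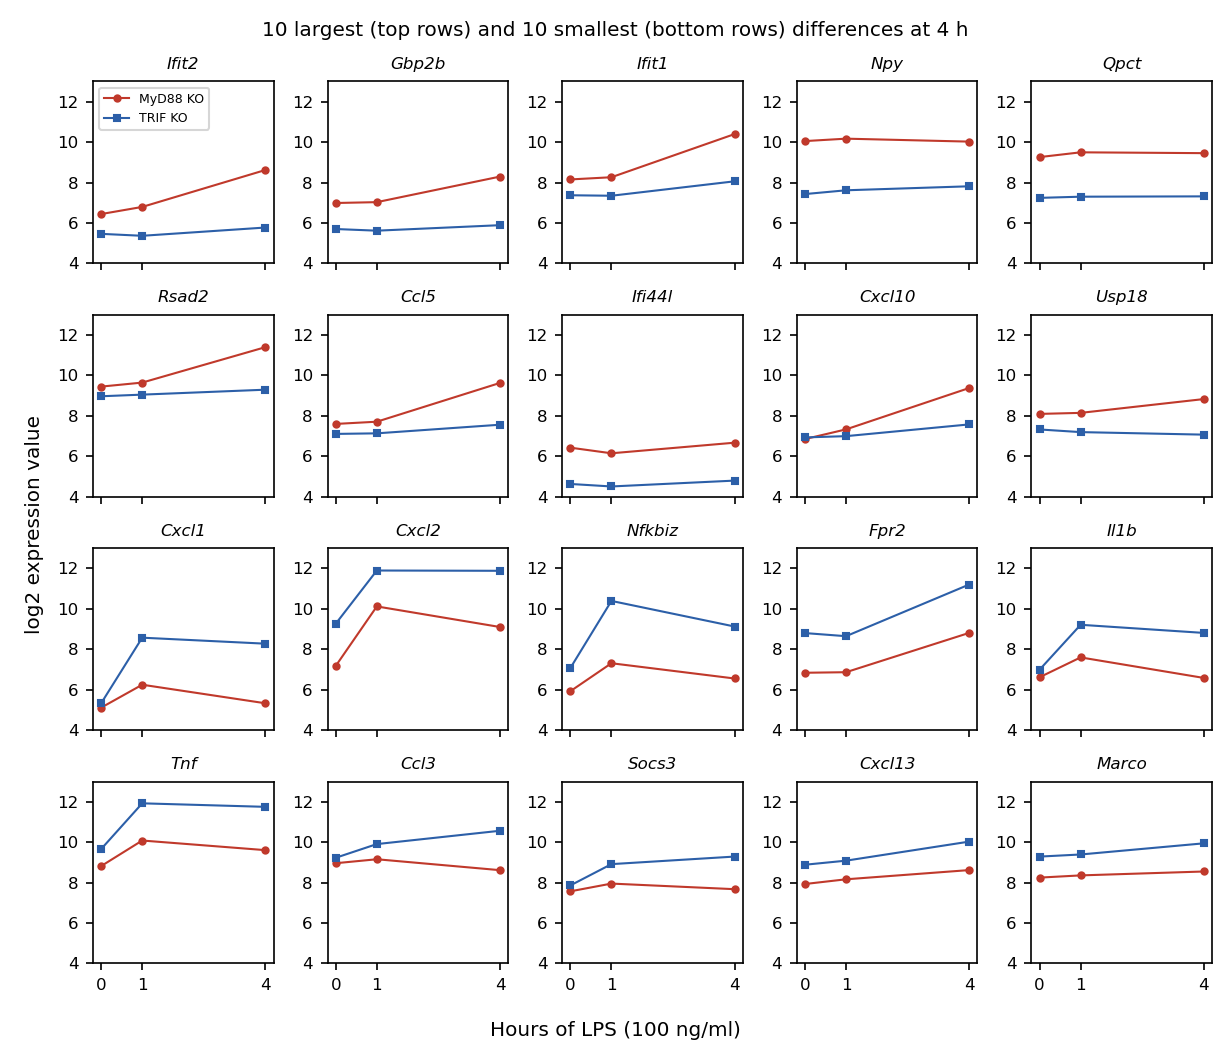
Level (log2 expression value) at 0, 1 and 4 h of LPS for the 10 genes with the largest differences at 4 h (top rows) and the 10 with the smallest (bottom rows). Red circles are MyD88 KO and blue squares TRIF KO, 1 array per point. Rsad2, Ccl5 and Cxcl10 separate mainly between 1 h and 4 h, Cxcl1, Il1b and Tnf by 1 h, and Npy and Qpct are apart at every time.

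The difference at 4 h is the sum of the difference at 0 h and the difference of inductions, and the 44 genes divided between them. Among the 26 higher genes, 6 were 2-fold higher already at 0 h, 11 had inductions at least 2-fold apart, 1 of these (Gbp2b) met both, and 10 met neither alone. Their median was 0.59 at 0 h and 1.60 at 4 h, with 0.95 as the median difference of inductions. Among the 18 lower genes, 7 were 2-fold lower at 0 h, 6 had inductions at least 2-fold apart, 1 (Nfkbiz) met both and 6 met neither. Their medians were -0.90 at 0 h, -1.40 at 4 h and -0.71 for the inductions. Nfkbiz met both by the probe set used only, as its other one had -0.36 at 0 h. At 0 h the sign was that of the 4 h difference in 24 of the 26 and in all 18. The same share over all genes was not counted, so this is not shown to be particular to the 44. Across all genes, 13 (0.13%) had an induction at least 2-fold higher in MyD88 KO and 8 (0.0797%) at least 2-fold lower. Over all genes the 0 h and 4 h differences correlated at 0.480, without either sharing an array with the other.

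Some genes were apart at all 3 times, with LPS and without it. Npy, the gene of neuropeptide Y, read 10.05, 10.17 and 10.03 in MyD88 KO, against 7.43, 7.62 and 7.81 in TRIF KO. Qpct, a glutaminyl cyclase that modifies the first residue of secreted peptides, read 9.26, 9.50 and 9.45 in MyD88 KO, against 7.24, 7.30 and 7.31 in TRIF KO. Mfge8, which bridges dying cells to phagocytes, read 12.53, 12.48 and 12.41 in MyD88 KO, against 11.38, 11.30 and 11.23 in TRIF KO. Neither knockout moved these 3 genes by as much as 1.5-fold with LPS. Hgsnat (a lysosomal acetyltransferase), Ifi44l and Gbp2b were the other genes 2-fold higher at all 3 times. Cxcl2, Fpr2, Marco, Nfkbiz and Pde4b were 2-fold lower at all 3 times by the probe sets used. By their other probe sets, Nfkbiz had -0.36 at 0 h, and Pde4b had -0.79 at 0 h and -0.87 at 4 h. Gbp2b and Ifi44l reached log2 = 6 only in MyD88 KO, where they are high, and with values under 6 raised to 6 their 0 h differences were 0.99 and 0.43. The other 9 genes were 2-fold apart at all 3 times under that floor as well. Qpct and Fpr2 are on chromosome 17, as is Ticam1, and none of the 11 is on chromosome 9 with Myd88. Calml4, on chromosome 9, missed the cut at 1 h only, with -1.06, -0.96 and -1.09 at 0, 1 and 4 h. Lrg1, on chromosome 17, was less far apart, with -0.84, -0.85 and -0.90. The part of chromosomal position in these differences was not tested.

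**Figure D3:**
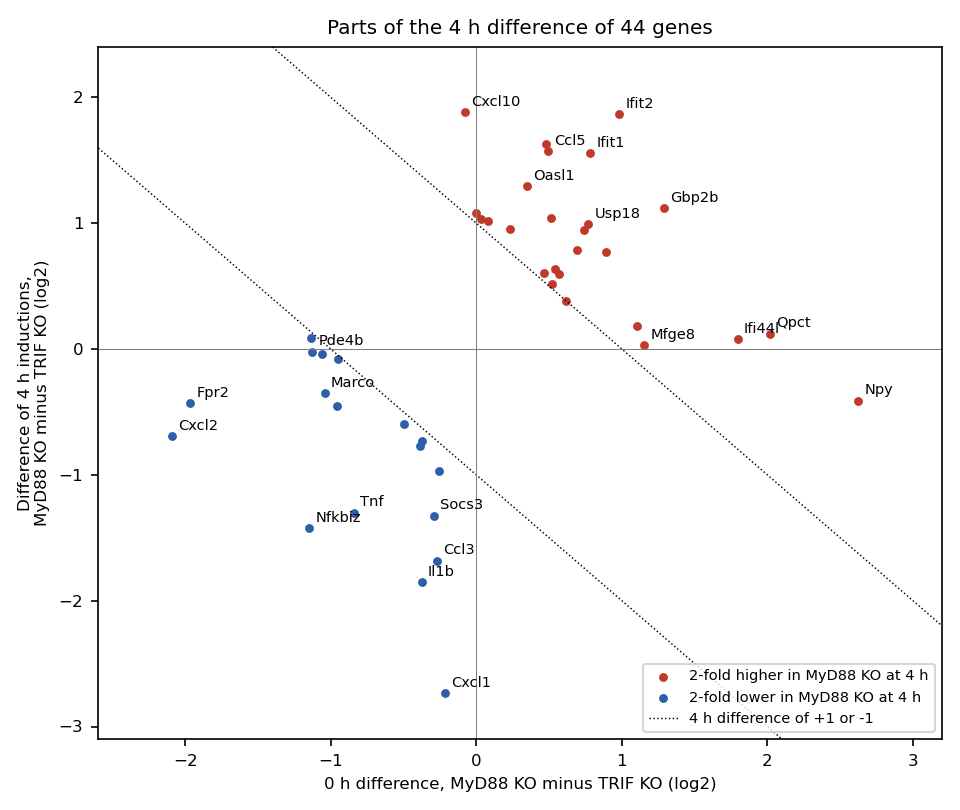
Difference at 0 h (horizontal axis, log2, MyD88 KO minus TRIF KO) against the difference of the 4 h inductions (vertical axis, log2) for the 44 genes 2-fold apart at 4 h, red for higher and blue for lower in MyD88 KO. The dotted lines mark sums of 1 and -1. Cxcl10 and Cxcl1 lie near 0 on the horizontal axis, and Qpct and Mfge8 lie near 0 on the vertical one.

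Counted by induction, the 4 h induction reached 2-fold for 43 genes (0.429%) in MyD88 KO, against 41 genes (0.409%) in TRIF KO. The lists shared 23 genes, which are 53.5% of the MyD88 KO list and 56.1% of the TRIF KO list. The inductions correlated across all genes at 0.607. Of the 20 genes induced by 2-fold in MyD88 KO alone, 11 had inductions at least 2-fold apart. Those 20 had median inductions of 1.15 in MyD88 KO and 0.41 in TRIF KO, an order that the way they were picked fixes. Beside antiviral genes and Peli1 they held Tlr1, which pairs with TLR2, Birc3, a ubiquitin ligase of TNF signalling, and Casp4, the caspase that senses LPS in the cytosol. For these the inductions were close to the threshold on both sides, such as 1.17 in MyD88 KO and 0.90 in TRIF KO for Tlr1. Of the 18 genes induced in TRIF KO alone, 7 had inductions at least 2-fold apart. Those 18 had medians of 0.50 in MyD88 KO and 1.18 in TRIF KO, again in the order fixed by the choice. Ptgs2 (cyclooxygenase-2), which starts prostaglandin synthesis, read 5.59, 5.67 and 5.67 in MyD88 KO, against 5.38, 6.03 and 6.65 in TRIF KO. All MyD88 KO readings of Ptgs2 and its 0 h reading in TRIF KO lay under log2 = 6, the low end of these arrays. Ptges, the prostaglandin E synthase that acts after it, had inductions of 0.52 in MyD88 KO and 1.28 in TRIF KO. Nlrp3, the inflammasome sensor, had inductions of 0.54 in MyD88 KO and 1.01 in TRIF KO.

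The 23 genes induced in both knockouts included pattern receptors, NF-kB genes and metabolic enzymes. Acod1, the enzyme that makes itaconate, had the largest induction in MyD88 KO. It read 7.79, 9.05 and 12.21 in MyD88 KO, against 8.81, 9.50 and 11.69 in TRIF KO. Its inductions were 4.41 in MyD88 KO and 2.88 in TRIF KO, from a lower start to a higher end in MyD88 KO. Clec4e (Mincle), a receptor of mycobacterial cord factor, had inductions of 3.02 in MyD88 KO, against 2.25 in TRIF KO, and Tlr2, the receptor of lipopeptides, had 2.20 and 1.23. Marcksl1, an actin-binding protein, had inductions of 2.85 in MyD88 KO and 1.74 in TRIF KO. Slc7a11, the cystine importer, had 1.43 in MyD88 KO and 1.86 in TRIF KO. Over the 23 genes the median induction was 1.64 in MyD88 KO, against 1.29 in TRIF KO, and the median difference was -0.99 at 0 h and -0.48 at 4 h. By these medians the genes began lower in MyD88 KO and were closer by 4 h. At 4 h 20 of the 23 were within 2-fold and 3 were 2-fold lower, against 0.179% of all genes. The same 0 h arrays entered the choice of these genes and their 0 h difference. How far that choice shaped the pattern was not tested.

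**Figure D4:**
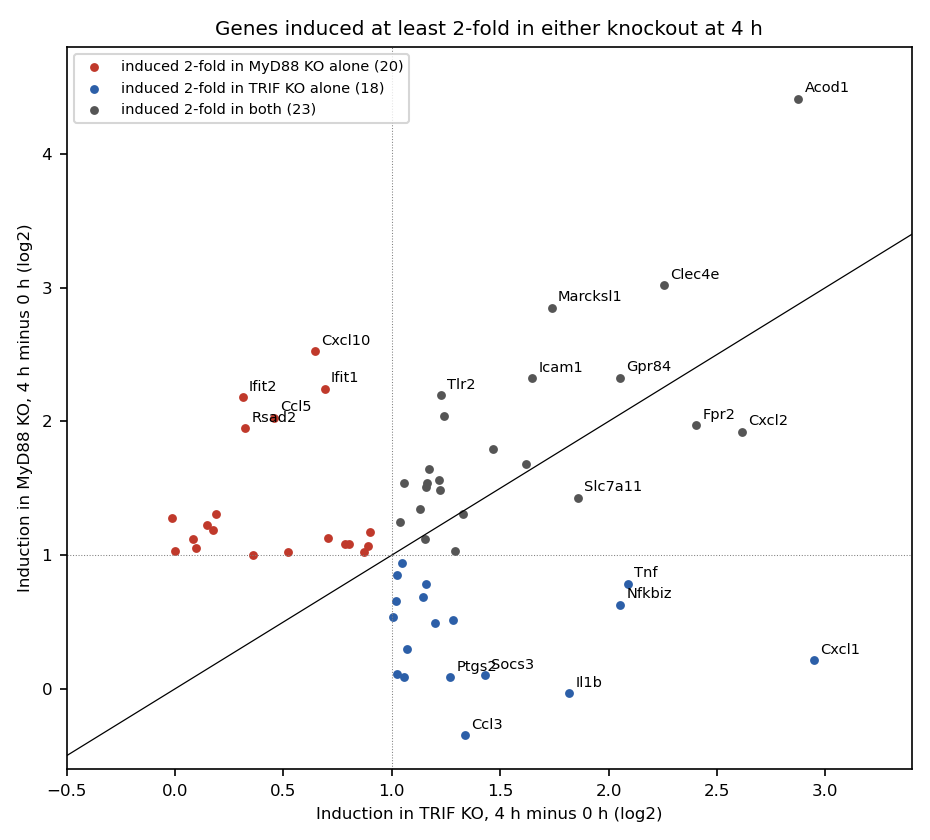
Induction at 4 h (4 h minus 0 h, log2) in MyD88 KO (vertical axis) against TRIF KO (horizontal axis) for the 61 genes induced by at least 2-fold in either. Red marks the 20 genes induced in MyD88 KO alone, blue the 18 in TRIF KO alone and grey the 23 in both, and the line marks equal induction. Acod1, Clec4e and Marcksl1 lie above the line among the shared genes and Cxcl2 and Fpr2 below it.

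Few genes were lower by 2-fold after LPS, 1 in MyD88 KO (0.00997%) and 5 in TRIF KO (0.0498%). Ccr2, the receptor that brings monocytes into tissue, had inductions of -1.05 in MyD88 KO and -1.01 in TRIF KO. Cd300lf, an inhibitory receptor of myeloid cells, had -0.67 in MyD88 KO, against -1.19 in TRIF KO, and its level was 2.05-fold higher in MyD88 KO at 4 h. Thbd, the anticoagulant thrombomodulin, had -0.56 in MyD88 KO and -1.10 in TRIF KO.

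The receptor and signalling genes of the TLR4 pathway had no member at 2-fold among 16 analysed, with a median of -0.09. Map3k8 (Tpl2), the kinase between NF-kB and ERK signalling, had a difference of -0.79, and Cd14, the LPS carrier, one of -0.73. Tlr4 itself read 7.45 in MyD88 KO and 7.59 in TRIF KO. Tbk1, the kinase on the TRIF side, read 9.48 in MyD88 KO, against 9.63 in TRIF KO, and Traf6, on the MyD88 side, read 7.75 and 7.77. Among pattern, scavenger and phagocytic receptors 2 of 21 were 2-fold lower in MyD88 KO, against 0.179% of all genes. Fpr2, the receptor of formyl peptides, read 6.84, 6.86 and 8.81 in MyD88 KO, against 8.80, 8.65 and 11.20 in TRIF KO. Marco, a scavenger receptor of bacteria, read 8.25, 8.36 and 8.55 in MyD88 KO, against 9.29, 9.39 and 9.94 in TRIF KO. Without LPS the differences were already -1.96 for Fpr2 and -1.04 for Marco.

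Of 29 lists of function, 18 had no member at 2-fold, and 22 had a median within 0.25 of 0. Lists without such a member included MHC presentation (median 0.03 over 15 genes), lipid and cholesterol handling (-0.04 over 19) and prostaglandin and leukotriene genes (-0.02 over 15). In the last of these Ptgs2 had a difference of -0.98 by the probe set used and -1.76 by its other one, where MyD88 KO read 4.77. The oxidative stress genes had a median of -0.18 over 12. The metal-withholding and acute phase genes had a median of -0.35 over 11, with Hp, the hemoglobin-binding haptoglobin, at -0.75 and Lcn2, a siderophore trap, at -0.67. Lcn2 stayed under log2 = 6 on all knockout arrays. Of 16 inflammasome and cell death genes 1 was 2-fold lower in MyD88 KO, against 0.179% of all genes. That gene was Mefv, of the inflammasome protein pyrin, with 8.41 in MyD88 KO and 9.57 in TRIF KO. Not yet described among the 44 are Slfn1, a T cell quiescence gene that interferon induces, with a difference of 1.18, and Cebpd, a transcription factor of acute phase genes, with -1.09. Calml4 had -1.09 and Tmem176b -1.04. Further probe sets that reached log2 = 6 were at hand for 4 of the higher genes, and all had the same sign and a 2-fold difference. For 5 of the lower genes all had the same sign, and for 3 of these all were 2-fold apart, the exceptions being Cebpd and Pde4b. Members of these lists were chosen with earlier results of these arrays known, and no list was tested.

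**Figure D5:**
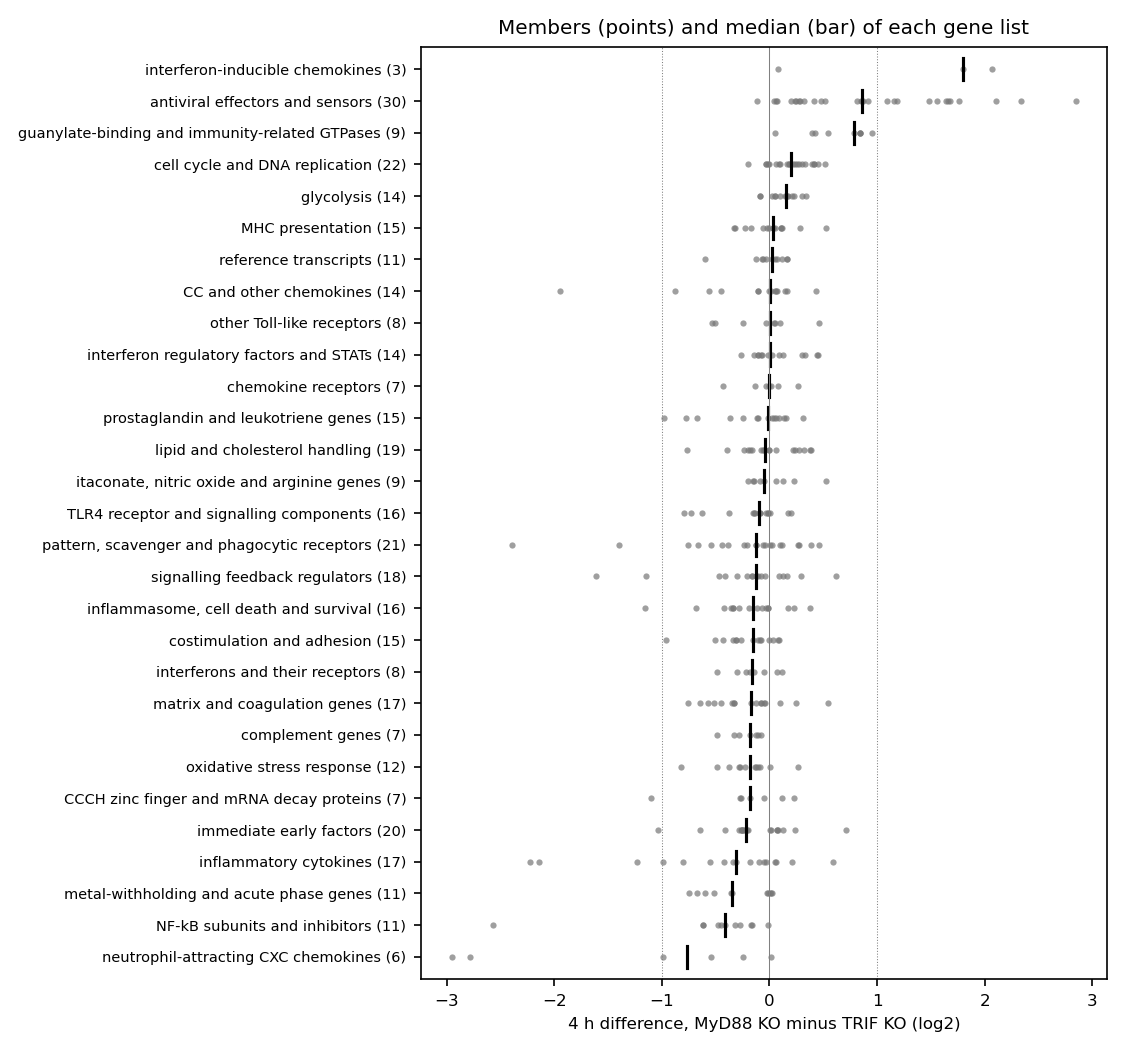
Difference at 4 h (log2, MyD88 KO minus TRIF KO) of each analysed member (grey points) and the median (black bar) of 29 gene lists, ordered by median, with the number of members in brackets. Dotted lines mark 2-fold. The 3 lists at the top (interferon-inducible chemokines, antiviral genes and GTPases) have medians of 1.80, 0.86 and 0.78. The neutrophil-attracting chemokines at the bottom have one of -0.77. Interferons and their receptors have a median of -0.16, and interferon regulatory factors and STATs one of 0.00.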

How the data were processed

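Biotin-labelled RNA from 9 groups was hybridised to Affymetrix arrays of 22690 probe sets, 1 array per group. The authors deposited log2 expression values, and the submitters' processing notes name RMA. No source used here gives its version or says whether the arrays were processed as 1 set. RMA corrects background, equalises quantiles and summarises probes, so a shift of most genes would be removed. Array medians lay between 7.01 and 7.07, and the values were used unchanged.

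Probe sets with 1 gene symbol in the platform annotation (20393) were named, with symbols updated through RefSeq (GRCm38.p6, 20364 matched), and 691 had several symbols and 1606 none. Of the analysed genes 4519 had more than 1 probe set. Differences are MyD88 KO minus TRIF KO. With 1 array per group no test was made, and nothing in the labels speaks of separate mice or cultures. Counts use a 2-fold threshold (1.5-fold and 4-fold where stated). The counting was checked on simulated data.

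Named genes were Myd88 and Ticam1, the 25 largest and 25 smallest differences, up to 4 members of each list, all members of the antiviral, chemokine, cytokine, NF-kB and TLR4 lists, genes with the largest differences of inductions and genes 2-fold apart at 0 and 4 h. Gbp2 and Casp4 were named after their values were seen, as were Bex1 and Mndal at the threshold. Members and lists were chosen with earlier results of these data known. Of the genes analysed, 92 reached log2 = 6 on no knockout array, so they passed through a wild-type array (5 list members, Cxcl5, Gbp6, Il12b, Il6 and Lcn2, among them). Filters, floor, probe set choice, centring, threshold and subtraction of the unstimulated difference were varied. Python 3.11.15, pandas 2.3.3, numpy 2.4.6 and matplotlib 3.10.9 were used.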

Additional observations from a re-analysis of the deposited data

Results flagged for a closer look

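Among 1433 probe sets that carry no gene name of their own and reached log2 = 6, 6 were at least 2-fold apart at 4 h, 2 higher and 4 lower in MyD88 KO, against 2 at 0 h. They stand outside the gene-level comparison. The largest, with no gene in the annotation used, read 7.68 in MyD88 KO, against 4.91 in TRIF KO at 4 h and was 2.20 higher (log2) in MyD88 KO at 0 h already. One annotated to Isg15 together with Gm9706 read 8.44 in MyD88 KO, against 7.09 in TRIF KO at 4 h, a difference of 1.35. Isg15 is an interferon-induced, ubiquitin-like protein, and the probe set cannot be given to it alone. The lowest, with no gene in that annotation, read 6.53 in MyD88 KO and 8.32 in TRIF KO.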

How the results depend on the processing

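No paired analysis was possible because each group had 1 array. No replicate could be left out, for the same reason. A value counts as moved when it shifts by more than the standard deviation of the unstimulated differences (0.175), a choice made for want of replicates. Without the filter, with a minimum of 7, with a floor of 6, with the mean of a gene's probe sets and with both centrings, 24 to 27 genes were higher by 2-fold and 17 or 18 lower. At 1.5-fold they were 60 and 64. Of the 44 genes, the floor took Calml4, Ifi44l and Mx1 below 2-fold, and the mean over probe sets took Cebpd and Rtp4. With that mean 43 of the 44 still passed the filter, Ifi44l being left out. With a minimum of 7, 42 passed, without Ifi44l and Mx1. Subtracting the unstimulated difference left 13 and 8 genes, 17 of the 44 among them. It reversed Npy (-0.41) and Tmem176b (0.0904), and it moved the medians of the NF-kB genes to 0.0435, antiviral genes to 0.35, interferon-inducible chemokines to 1.57 and neutrophil-attracting chemokines to -0.32. Without the filter the interferon-inducible chemokines had a median of 0.94. A minimum of 7 moved the neutrophil-attracting chemokines to -1.66, and the floor moved them to -0.40 and the cytokines to -0.10, since low members were dropped or raised. Centring shifted all differences by at most 0.03. The floor took the 9 GTPase genes to 0.55. Low levels limit Ifit2, Gbp2b, Ifi44l, Mx1, Calml4 and Cxcl1, the 6 of the 44 genes with a 4 h array under 6. They also limit Il6, Cxcl5, Gbp6, Lcn2 and Ptgs2. The floor was not applied to inductions, where Ptgs2, among other genes, started under 6 in both knockouts. The counts of induced genes thus include low readings.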

Other observations

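Genes of the cell cycle and DNA replication were slightly higher in MyD88 KO, at 0 h in 21 of 22 genes and at 4 h in 17 of 22. The medians were 0.27 and 0.20 (log2), with no gene at 2-fold. Rrm2, a gene of this list, reached log2 = 6 on MyD88 KO arrays only. With values under 6 raised to 6 its difference was 0.42 at 0 h and 0.32 at 4 h. Top2a, the topoisomerase of dividing cells, had 7.19 in MyD88 KO at 4 h, against 6.74 in TRIF KO. Glycolysis genes lay above 0 in 12 of 14 cases, with a median of 0.15, and Hk2, the hexokinase that starts the pathway, had 0.34. All 7 complement genes lay below 0, with a median of -0.18, and C1qa, a chain of the C1q recognition protein, had -0.49 at 4 h and -0.52 at 0 h. Over all genes the median difference was -0.00 at 4 h and 0.02 at 0 h, and at 4 h 4828 of 10032 genes lay above 0.

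Klf4, a transcription factor of monocytes and macrophages, read 7.29, 7.58 and 6.82 at 0, 1 and 4 h in MyD88 KO, against 7.07, 7.23 and 6.11 in TRIF KO. It was 1.64-fold higher in MyD88 KO at 4 h. Rgs2, which damps G protein signalling, read 10.02, 9.88 and 9.58 in MyD88 KO, against 10.06, 9.45 and 8.96 in TRIF KO. Both genes were lower at 4 h than at 0 h in each knockout.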
